A study of Mus musculus with 30 samples.

Results

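Organic ion transporters carry drugs, hormones, bile acids, urate and waste products across the membranes of liver, kidney and brain cells. The mouse genes of 3 families were followed: Slc22a (organic cation, carnitine and organic anion transporters), Slco (organic anion transporting polypeptides, OATPs) and Abcc (ATP-driven export pumps and the sulfonylurea receptors). A gene belonged to the set if at least 1 probe set of the array carried its symbol and no other, and its probe set with the strongest signal stood for it. This gave 46 genes of the 18193 with such a probe set, namely 21 Slc22a, 15 Slco and 10 Abcc genes, read by 85 probe sets in all.

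The samples were liver, kidney and brain of 10 male mice at day 22, which carry the viable yellow agouti allele Avy opposite a nonagouti allele a, and so do all groups compared here. The mice came from 1 colony, kept by sibling mating with the Avy allele always heterozygous, in which Avy arose on the C3H/HeJ strain, and they had free access to diet and water. Each of 5 coat classes holds 2 mice, numbered 1 and 2, and the classes run from yellow over slightly mottled, mottled and then heavily mottled to pseudoagouti coats; the coat follows how far a retrotransposon upstream of the agouti gene drives that gene. No wild-type mice and no females are among the samples, the labels name no batch, and the number of a mouse is used below as a label only.

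In the proximal tubule of the kidney, Slc22a transporters of the basal membrane take up organic anions and cations from the blood, and apical transporters and ABC pumps pass them into the urine or take urate and carnitine back. In hepatocytes, OATPs take up bile acids, bilirubin and many drugs at the sinusoidal side, and Abcc2 exports their conjugates into bile. At the blood-brain barrier and the choroid plexus, a few of the same proteins move thyroid hormone, steroid conjugates and anionic drugs. Several members are known from adult mice to differ between the sexes and to change around weaning and puberty.

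The Slco1 genes lie side by side on chromosome 6 in the order Slco1c1, Slco1b2, Slco1a4, Slco1a1, Slco1a6 and Slco1a5, and 7 Slc22a genes lie together on chromosome 19 in the order Slc22a19, Slc22a26, Slc22a27, Slc22a29, Slc22a30, Slc22a8 and Slc22a6 (RefSeq gene order in GRCm38.p6, where other coding genes stand between some of them). Stretches of 300 bases around the start of a gene, 250 before and 50 after it, were taken from RefSeq for GRCm38.p6. For Slco1b2 (chr6:141629268-141629567, plus strand), Slco1a1 (chr6:141946913-141947212, minus strand), Slco1a6 (chr6:142186100-142186399, minus strand) and Slco1c1 (chr6:141524104-141524403, plus strand) they are shown because these neighbours had their highest signals in different tissues. Capitals mark GTTAAT, the core of the motif of the liver and kidney factor HNF1, and TTCNNNGAA, the motif of STAT5, a factor activated by growth hormone, on either strand; the 2 matches in Slco1b2 do not overlap.
Slco1b2: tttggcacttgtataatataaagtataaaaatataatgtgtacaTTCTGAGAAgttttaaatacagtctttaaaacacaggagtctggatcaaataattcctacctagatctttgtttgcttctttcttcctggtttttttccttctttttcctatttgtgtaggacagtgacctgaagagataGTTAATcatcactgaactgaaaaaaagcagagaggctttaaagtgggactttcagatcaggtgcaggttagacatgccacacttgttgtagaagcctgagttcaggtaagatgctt
Slco1a1: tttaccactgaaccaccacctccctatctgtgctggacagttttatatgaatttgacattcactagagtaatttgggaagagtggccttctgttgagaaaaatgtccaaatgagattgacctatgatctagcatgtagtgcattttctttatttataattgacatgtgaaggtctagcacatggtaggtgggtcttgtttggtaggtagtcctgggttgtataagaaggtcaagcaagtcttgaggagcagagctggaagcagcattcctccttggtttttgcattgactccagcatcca
Slco1a6: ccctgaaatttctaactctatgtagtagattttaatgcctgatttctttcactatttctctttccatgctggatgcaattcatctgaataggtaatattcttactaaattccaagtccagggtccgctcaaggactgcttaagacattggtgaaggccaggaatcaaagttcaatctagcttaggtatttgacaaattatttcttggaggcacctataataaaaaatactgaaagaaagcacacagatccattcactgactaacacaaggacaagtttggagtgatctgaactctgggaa
Slco1c1: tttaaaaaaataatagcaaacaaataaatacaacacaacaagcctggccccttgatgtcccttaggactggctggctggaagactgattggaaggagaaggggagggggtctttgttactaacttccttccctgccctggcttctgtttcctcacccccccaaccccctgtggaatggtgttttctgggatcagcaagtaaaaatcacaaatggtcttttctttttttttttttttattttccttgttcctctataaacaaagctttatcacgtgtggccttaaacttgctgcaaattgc
Of these 4 windows, that of Slco1b2 held both motifs and the other 3 held neither. Over the 38 members with a window in the table, GTTAAT was found in 4 (Slc22a29, Slc22a6, Slc22a8 and Slco1b2) and in 7.10% of all 32851 windows. TTCNNNGAA was found in 9 members and 8.30% of all windows, AGAACA, a motif of the androgen and glucocorticoid receptors, in 9 members and 19% of all windows, and CAAAGTCCA, the core bound by HNF4, in no member and 0.475% of all windows. Some members have several windows, so counts of members and shares of windows are unlike units. Of the 45 windows of members, 4 held GTTAAT, 10 TTCNNNGAA, 10 AGAACA and 0 CAAAGTCCA. A match of letters is a description of the window and shows no binding.

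The windows of Slc22a30 (chr19:8405056-8405355, minus strand) and its neighbour Slc22a29 (chr19:8218851-8219150, minus strand) are shown because these genes differed in opposite directions in liver and kidney of 2 mice, as described below. Capitals mark the 5 runs of at least 10 bases that were identical in their alignment.
Slc22a30: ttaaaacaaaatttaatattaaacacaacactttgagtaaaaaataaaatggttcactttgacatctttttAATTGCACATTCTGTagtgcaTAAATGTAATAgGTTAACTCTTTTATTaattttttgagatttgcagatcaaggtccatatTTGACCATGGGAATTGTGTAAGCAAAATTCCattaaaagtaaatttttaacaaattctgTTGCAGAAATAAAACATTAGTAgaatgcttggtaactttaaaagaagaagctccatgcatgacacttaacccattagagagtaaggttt
Slc22a29: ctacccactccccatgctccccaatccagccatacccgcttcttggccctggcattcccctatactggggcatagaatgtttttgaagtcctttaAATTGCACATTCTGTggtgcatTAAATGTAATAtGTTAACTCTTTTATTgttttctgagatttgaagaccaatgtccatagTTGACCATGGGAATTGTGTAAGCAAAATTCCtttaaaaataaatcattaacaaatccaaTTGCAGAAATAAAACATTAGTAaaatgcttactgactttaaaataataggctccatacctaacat
The longest run had 31 bases and the 5 runs together 94. Aligned end to end, 224 of 300 bases of the pair were identical (74.7%). Of all 45 pairs among 10 members, Slc22a19 with Slc22a30 came next (207 bases, 69%), and the other 43 had 53.7% to 62.0%.

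The signals are linear intensities, comparable between arrays for 1 probe set but not between probe sets. Array medians ran between 105.2 and 144.6 for liver, between 114.2 and 152.6 for kidney and between 138.2 and 205.4 for brain. The log2 values of 2 arrays of 1 tissue correlated with r between 0.926 and 0.984. Tissue labels matched defining genes: all 8 hepatocyte markers were higher in liver than in both other tissues, all 7 proximal tubule markers in kidney and all 6 neuron markers in brain. Because whole tissue was used, fewer cells of a type and less RNA per cell cannot be told apart for any of the values below. Differences between tissues were tested within mice on log2(signal + 16) with limma, and a member counted as higher or lower at a Benjamini-Hochberg adjusted p under 0.05 over 22519 probe sets with a log2 change of 1 or more. The added 16 makes a log2 difference understate the change of weakly expressed genes. For 11 members the strongest probe set carries a suffix for sequence shared with other transcripts or with other forms of the gene (Slc22a7, Slc22a12, Slc22a17, Slc22a27, Slc22a29, Slco2b1, Slco4a1, Abcc2, Abcc5, Abcc8 and Abcc9).

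Of the 46 members, 35 had a mean of at least 242 signal units in at least 1 tissue and were tested. The other 11 (Abcc10, Abcc12, Slc22a14, Slc22a15, Slc22a16, Slc22a21, Slco1a5, Slco5a1, Slco6b1, Slco6c1 and Slco6d1) had mean signals between 23.0 and 224.4 in their highest tissue. Among them are Slc22a14, Slco6b1, Slco6c1 and Slco6d1, genes known from the testis, which was not sampled. Since a member passed by the tissue in which it was strongest, counts over the 35 describe the tested members and not the families as a whole.

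Kidney held the largest share of the tested members. Kidney exceeded both other tissues in 14 of 35 members (40.0%), while 7.66% of all probe sets tested did so. Liver exceeded both others in 9 members (25.7%) and 7.61% of all probe sets, and brain in 4 members (11.4%) and 19.6% of all probe sets. A further 5 members (Abcc2, Abcc3, Abcc9, Slc22a29 and Slc22a30) were higher in liver and in kidney than in brain with no call between them, 2 (Abcc1 and Slco3a1) were higher in kidney and brain than in liver, and Slc22a23, an orphan member of the family, had no call in any comparison. Set against kidney, liver had 9 members higher and 17 lower, with 9.85% and 18.6% of all probe sets. In liver against brain 16 were higher and 10 lower (20.4% and 30.2% of all probe sets), and in kidney against brain 23 were higher and 5 lower (20.7% and 21.9%). The median size of the log2 difference was 2.62 over the tested members and 0.56 over all probe sets for liver against kidney, 1.99 and 1.02 for liver against brain, and 3.02 and 0.81 for kidney against brain.

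**Figure D1:**
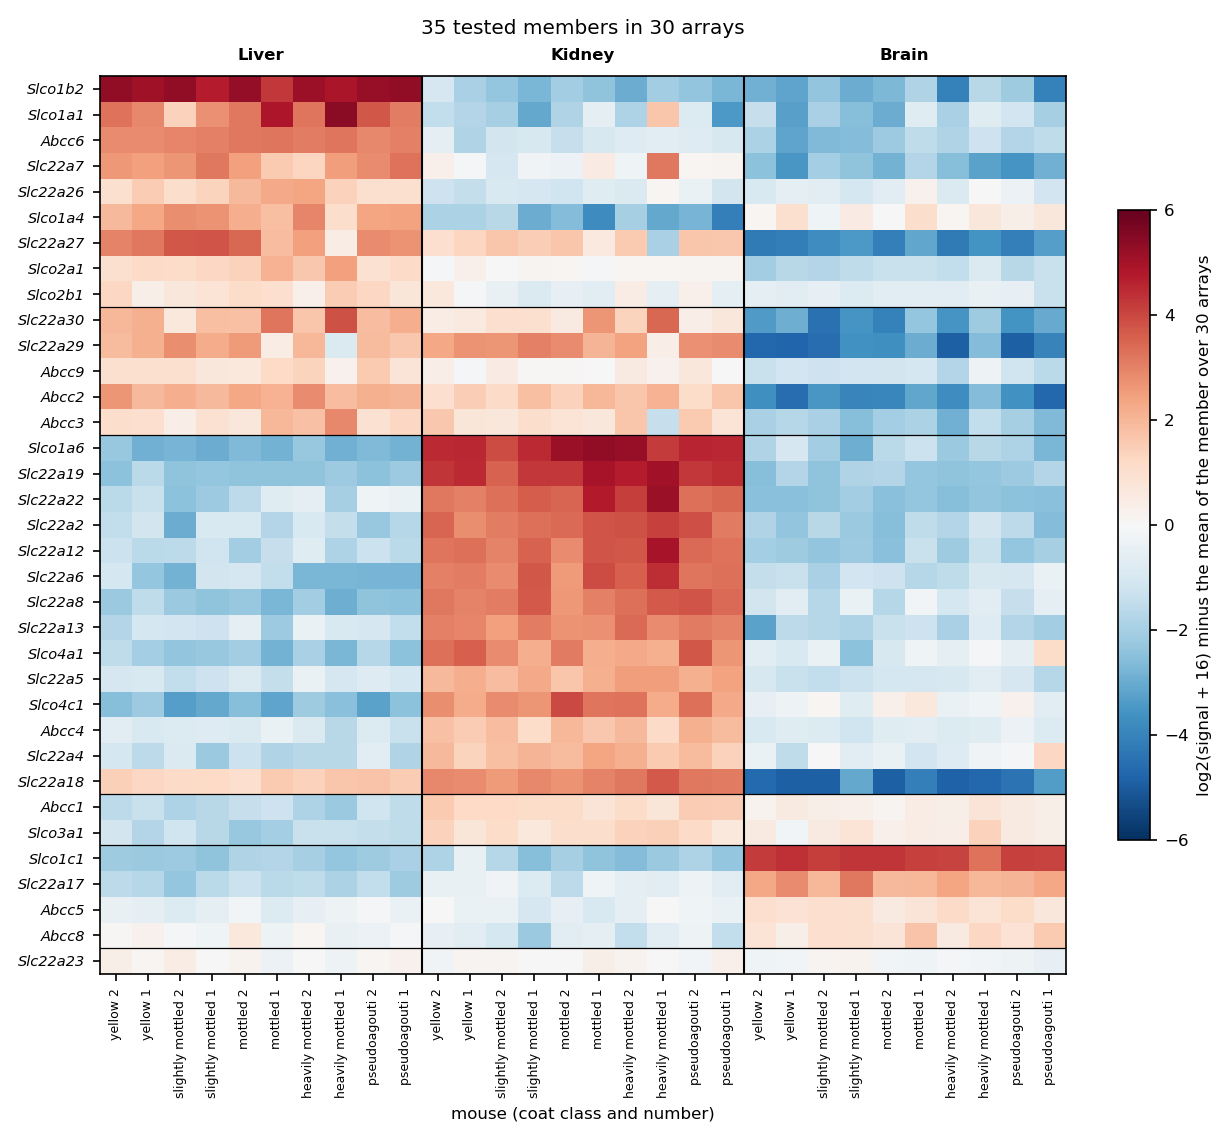
Each row is 1 of the 35 tested members and each column 1 of the 30 arrays, in 3 blocks for liver, kidney and brain with the mice in order of coat class and number 2 left of number 1; colour gives log2(signal + 16) minus the mean of the row. Lines separate, from the top, the 9 members led by liver, 5 shared by liver and kidney, 14 led by kidney, 2 shared by kidney and brain, 4 led by brain and Slc22a23.

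The organic anion transporters (OATs) were divided between kidney and liver, and none was led by brain. All 11 on the array passed the filter, with 6 led by kidney, 3 by liver (Slc22a7, Slc22a26 and Slc22a27) and 2 shared by both (Slc22a29 and Slc22a30). Slc22a19, which encodes the apical exchanger Oat5 of rodent kidney, had signals of 1181.2 to 3333.3 (median 2080.3) in kidney, against 1.8 to 14.8 (median 6.05) in brain and 2.5 to 17.3 (median 3.55) in liver. The lowest kidney exceeded every other sample by far, and the log2 difference from brain, the next tissue, was 6.53 ± 0.16 (SE, adjusted p = 8.03e-22). Slc22a12, the apical urate exchanger Urat1 that returns urate from the urine, had 3945.7 to 17460 (median 5677.55) in kidney, against 114.3 to 323.3 (median 184.6) in liver and 82.5 to 205.9 (median 111.15) in brain. Its groups did not overlap, its highest kidney belonged to heavily mottled mouse 1, and kidney exceeded liver by 4.96 ± 0.16 (SE, adjusted p = 4.52e-19) on the log2 scale.

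Slc22a22, known in mouse as the prostaglandin transporter Oat-pg of the proximal tubule, had 823.9 to 3832.9 (median 1144.75) in kidney, against 2.9 to 71.5 (median 22.4) in liver and 1.9 to 8.5 (median 2.8) in brain. All 10 kidneys stood above all other samples, with a log2 difference from liver of 5.06 ± 0.26 (SE, adjusted p = 4.93e-15), although kidneys differed 4.65-fold among themselves. The basolateral uptake transporters Slc22a6 (Oat1) and Slc22a8 (Oat3), the entry step of drug and toxin secretion into urine, averaged 2498 ± 1071 and 5754 ± 1474 in kidney, against 81.5 ± 31.5 and 308 ± 116 in brain and 45.6 ± 35.4 and 104 ± 34.9 in liver (SD, n = 10 mice). Brain was their next tissue, and kidney exceeded it by 4.64 and 4.20 on the log2 scale. Slc22a13 (Oat10), an apical exchanger for nicotinate and urate, averaged 2460.0 ± 441 in kidney, against 133 ± 51.2 in liver and 87.4 ± 40.9 in brain.

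Of the OATs led by liver, Slc22a7 (Oat2) is a sinusoidal transporter of cyclic nucleotides and other anions. Its signals were 1439.6 to 5688.4 (median 3501.35) in liver, compared with 280.5 to 5367.8 (median 586.3) in kidney and 34.7 to 158.3 (median 76.6) in brain. Liver exceeded kidney by 2.25 ± 0.34 (SE, adjusted p = 2.34e-06) on the log2 scale, in 9 of 10 mice; the exception was heavily mottled mouse 1, whose kidney had 5367.8 and whose liver had 3401.9. Slc22a26, a member of the rodent cluster on chromosome 19, had 495.7 to 1338.4 (median 667.7) in liver, compared with 103.7 to 307.1 (median 154.05) in brain and 84.2 to 270 (median 121.25) in kidney. All livers lay above all other samples, by 2.07 ± 0.18 (SE, adjusted p = 4.31e-11) on the log2 scale over brain. Its neighbour Slc22a27 averaged 2460.5 ± 1250.2 in liver, compared with 754 ± 299 in kidney and 7.42 ± 6.98 in brain, with liver the highest tissue in every mouse and a log2 difference from kidney of 1.68 (SE 0.30).

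Of the 5 organic cation and carnitine transporters, 3 were tested, and these 3 were higher in kidney than in both other tissues. Slc22a2 (Oct2), which takes up creatinine, metformin and other cations from the blood, had 2068.5 to 5132.4 (median 3261.4) in kidney, against 21.5 to 144.2 (median 92.2) in liver and 33.6 to 123.8 (median 70.3) in brain. The groups did not overlap, and the log2 difference from liver was 5.03 ± 0.22 (SE, adjusted p = 1.15e-16). Slc22a5 (Octn2), the high-affinity carnitine transporter that recovers carnitine from the urine, averaged 5271 ± 975 in kidney, against 572 ± 135 in liver and 521 ± 113 in brain. Slc22a4 (Octn1), a transporter of ergothioneine, averaged 295 ± 67.7 in kidney, against 58.7 ± 48.5 in brain and 16.6 ± 11.4 in liver. Of the remaining Slc22a genes, Slc22a18, an imprinted gene with an orphan product, was led by kidney with 4956 ± 1181, against 1597 ± 254 in liver and 16.6 ± 18.3 in brain.

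Slc22a17, the receptor of the iron-carrying protein lipocalin 2, was the only tested Slc22a member led by brain. It had 4251.3 to 10013.6 (median 5132) in brain, against 363.1 to 963.7 (median 783.35) in kidney and 210.2 to 438.2 (median 349.95) in liver. Every brain lay above every kidney and liver, and the log2 difference from kidney was 2.89 ± 0.16 (SE, adjusted p = 9.67e-15).

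The Slco1 cluster was split gene by gene between the 3 tissues, although its genes are neighbours. Of the 5 tested members, 3 were led by liver, 1 by kidney and 1 by brain. Slco1b2 (Oatp1b2), the hepatocyte transporter for bile acids, bilirubin and statins, had 7560.9 to 15970.4 (median 14419.6) in liver, compared with 35.1 to 180.9 (median 61.45) in kidney and 7.5 to 110.3 (median 41.05) in brain. Its livers lay far above all other samples, with a log2 difference from kidney of 7.33 ± 0.24 (SE, adjusted p = 4.07e-19). Slco1a6, a kidney transporter of the same family, had 2496.8 to 6652.3 (median 3864.4) in kidney, against 6.2 to 68.1 (median 31.55) in brain and 5.1 to 18.8 (median 7.95) in liver. The groups did not overlap and kidney exceeded brain by 6.56 ± 0.19 (SE, adjusted p = 1.10e-20) on the log2 scale. Slco1c1 (Oatp1c1), which carries thyroxine across the blood-brain barrier, had 1055.5 to 2355.1 (median 1959.9) in brain, against 2.8 to 66.9 (median 10.4) in kidney and 5.1 to 17.5 (median 9.85) in liver. Brain exceeded kidney by 6.08 ± 0.19 (SE, adjusted p = 4.95e-20) on the log2 scale, and the lowest brain, of heavily mottled mouse 1, was still above every other sample.

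Slco1a1 (Oatp1a1), a transporter of steroid conjugates and bile acids known as a gene of male liver and kidney in adult mice, had 783.1 to 12917.8 (median 2756.3) in liver, compared with 11.9 to 934.3 (median 72.25) in kidney and 15.8 to 169.9 (median 63.25) in brain. Liver was the highest tissue in every mouse and exceeded kidney by 4.88 ± 0.27 (SE, adjusted p = 1.81e-14) on the log2 scale, but the highest kidney, of heavily mottled mouse 1, exceeded the lowest liver, of slightly mottled mouse 2. Slco1a4 (Oatp1a4), a transporter of both hepatocytes and the blood-brain barrier, had 1574 to 5816.6 (median 3911.9) in liver, compared with 625.7 to 1584.5 (median 1026.75) in brain and 29.1 to 229.9 (median 103.65) in kidney. It ran from liver over brain to kidney, with a log2 difference of 1.82 ± 0.26 (SE, adjusted p = 5.67e-07) between liver and brain.

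**Figure D2:**
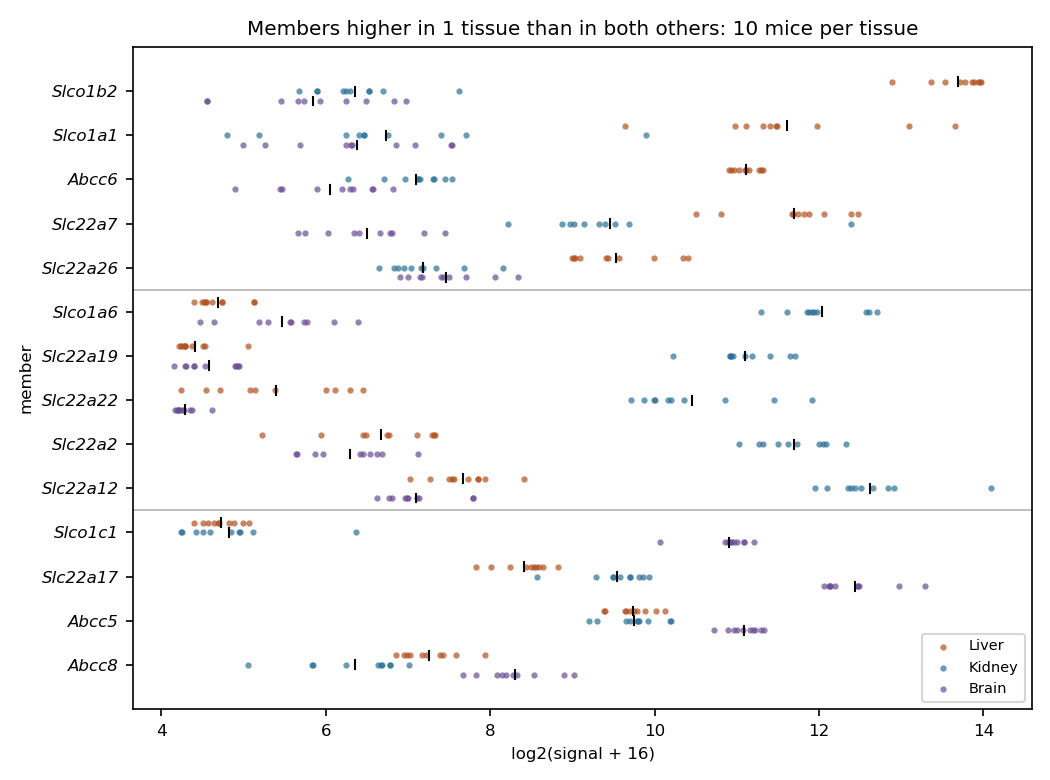
Points give log2(signal + 16) of each of 10 mice per tissue for the 5 members led by liver (top), the 5 led by kidney (middle) with the largest difference from their next tissue on this scale, and the 4 led by brain (bottom); vertical ticks are means. Kidney points of the middle block stand apart from both other tissues, while the highest kidney of Slco1a1 and of Slc22a7 lies among the liver points.

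Of the other OATPs, 2 were led by liver and 2 by kidney. Slco2a1, the prostaglandin transporter, averaged 1596 ± 667 in liver, compared with 598 ± 53.3 in kidney and 191 ± 48.8 in brain, with no overlap. Slco2b1, a widespread carrier of steroid sulphates and drugs, averaged 1141 ± 315 in liver, compared with 524 ± 211 in kidney and 367 ± 59 in brain, and liver overlapped kidney. Slco4c1, the basolateral OATP of the proximal tubule, averaged 1281 ± 558 in kidney, against 139 ± 51 in brain and 10.1 ± 7.68 in liver. Slco4a1, which carries thyroid hormone, averaged 1041 ± 456 in kidney, against 94.4 ± 73.2 in brain and 15.9 ± 9.44 in liver. Both exceeded brain, their next tissue, with log2 differences of 3.02 and 3.38. Slco3a1, a carrier of prostaglandins, averaged 990.5 ± 209.6 in kidney and 689 ± 218 in brain, which overlapped, and 149 ± 39 in liver.

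The ABCC export pumps were spread over all 3 tissues. Abcc6, a liver pump needed for ATP release and for the control of mineralisation, had 1893.8 to 2534.4 (median 2193.35) in liver, compared with 61.4 to 169 (median 124.35) in kidney and 13.8 to 97.2 (median 59.8) in brain. Liver stood apart from both, by 4.01 ± 0.14 (SE, adjusted p = 2.80e-18) on the log2 scale over kidney. Abcc2 (Mrp2), the apical pump for bilirubin and glutathione conjugates, averaged 2531 ± 626 in liver and 1593 ± 409.6 in kidney, against 27.9 ± 19.8 in brain; liver exceeded kidney by 0.67 (SE 0.18) on the log2 scale, under the minimum of 1. Abcc3 (Mrp3), the basolateral pump that returns conjugates to the blood, averaged 1174 ± 760.4 in liver and 846 ± 369 in kidney, with a log2 difference of 0.45 ± 0.32 (SE, adjusted p = 0.212), and 87.8 ± 29 in brain.

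Abcc4 (Mrp4), an exporter of cyclic nucleotides and urate, was led by kidney with 1129 ± 258, against 188 ± 30.7 in brain and 172 ± 42 in liver. Abcc1 (Mrp1), the leukotriene and glutathione conjugate pump, averaged 985 ± 195 in kidney and 564 ± 72.3 in brain, against 132 ± 30.9 in liver. Abcc5 (Mrp5), an exporter of nucleotides, had 1674.8 to 2553.3 (median 2206.4) in brain, against 574.7 to 1161.5 (median 869.6) in kidney and 649.6 to 1105.6 (median 828.75) in liver. The brains lay above all other samples, by 1.33 ± 0.10 (SE, adjusted p = 9.55e-12) on the log2 scale over kidney. Abcc5 has 10 probe sets, and brain was the highest tissue in all 6 that were tested, but in the strongest one without a suffix for shared sequence the difference between brain and kidney was 0.34 (adjusted p = 0.279).

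The sulfonylurea receptors are relatives of the pumps that form the regulatory subunits of ATP-sensitive potassium channels, with Kcnj11 or Kcnj8 as the pore. Abcc8 (Sur1), the receptor of neurons and pancreatic beta cells, had 188 to 503.1 (median 285.05) in brain, against 99.6 to 228.6 (median 130.4) in liver and 17.3 to 113.6 (median 84.7) in kidney. Brain was the highest tissue in every mouse, with a log2 difference from liver of 1.04 ± 0.21 (SE, adjusted p = 7.37e-05), and the lowest brains overlapped the highest liver. It was under the minimum of 1 without mottled 1 (0.93), heavily mottled 1 (0.97) or pseudoagouti 1 (0.97), with an offset of 64 (0.85) and after quantile normalisation (0.74), each of which ends the call. Abcc9 (Sur2), the receptor of muscle and vessel walls, averaged 1231 ± 327 in liver and 748 ± 141 in kidney, against 271 ± 87.5 in brain. Kcnj11 averaged 1920.2 in liver, 1823.4 in kidney and 1428.3 in brain with no call, and Kcnj8 was higher in kidney than in brain (457.6 and 138.8) with no call for liver.

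Of 13 partner transporters on the array, 11 were tested, and 3 were led by liver, 5 by kidney and none by brain. Led by liver were Slc10a1, the bile acid uptake transporter Ntcp (means of 21198.2 in liver, 608.0 in kidney and 51.9 in brain), Abcb11, the bile salt export pump (10654.0, 67.0 and 104.2 in the same order), and Abcb4, the phospholipid flippase of the canaliculus. Led by kidney were Slc47a1 (Mate1), which passes the cations taken up by Slc22a2 into the urine (8785.5 in kidney, 4059.8 in liver and 167.6 in brain), Slc13a3, which supplies the dicarboxylate that Slc22a6 and Slc22a8 exchange, Abcg2, Slc51a and Slc51b. Of 9 regulators tested, 6 were led by liver (Nr1i2, Nr1i3, Nr1h4, Nr0b2, Ppara and Ahr) and 1 by kidney, Pdzk1, the scaffold that holds apical transporters in place (13155.4 in kidney, 2393.4 in liver and 22.4 in brain). Hnf4a, which is known to drive many members in both organs, had close means of 9203.5 in liver and 8894.2 in kidney, against 129.1 in brain. In the test of differences between mice described next, none of the 11 partners was called, and of the regulators 1 was, Ahr (adjusted p = 0.00913), with 6866.9 in the liver of slightly mottled mouse 2 and 1990.2 to 4218.1 in the other 9 livers.

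The study looked for genes that vary widely between mice and little between their tissues. With tissue as a covariate, limma's F-test over mice called 2 of the 35 tested members, Slc22a30 (adjusted p = 0.000678) and Slco1a1 (adjusted p = 0.00392), and 6.8% of all probe sets. That share is close to the background, so the count is no result about the families. Both genes were taken up because they varied between mice in these data. Their p-values here and below describe that variation and give it no independent support. Averaged over tissues, the highest and the lowest mouse differed 6.30-fold for Slc22a30 and 8.44-fold for Slco1a1, and the highest was heavily mottled mouse 1 for both. The F-test does not ask for little variation between tissues. Mean SD over mice, divided by mean SD over the tissues of a mouse, was 0.30 for Slc22a30 and 0.38 for Slco1a1. Both genes thus varied more between tissues than between mice. The next members in order of p were Abcc6 (adjusted p = 0.0881) and Slco3a1 (adjusted p = 0.110).

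For Slco1a1 the liver signals, with number 2 before number 1, were 2861.8 and 2188.2 in yellow, 783.1 and 2000.4 in slightly mottled, 2685.4 and 8710.7 in mottled, 2827.2 and 12917.8 in heavily mottled, and 4007.5 and 2529.4 in pseudoagouti mice. Mottled mouse 1 and heavily mottled mouse 1 stood above the other 8 livers, which lay at 783.1 to 4007.5. In kidney, where Slco1a1 was weak, the same 2 mice had 192.7 and 934.3, against 11.9 to 153.5 in the others. In brain they had 169.9 and 168.3, against 15.8 to 119.8, all below the filter value of 242. The brain arrays of these 2 mice also had the highest medians (196.7 and 205.4, against 138.2 to 154.8 in the other 8). The part of this in their weak brain signals was not tested. A second probe set of Slco1a1, read on the same RNA, was called in the same test (adjusted p = 0.00182).

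For Slc22a30, an OAT of the chromosome 19 cluster whose substrates are little known, the liver signals were 2565.8 and 2850.2 in yellow, 1002.3 and 2306 in slightly mottled, 2236.9 and 6116.2 in mottled, 2040.1 and 9236.6 in heavily mottled, and 2379.3 and 2927.9 in pseudoagouti mice. In kidney they were 879.6 and 978.7 in yellow, 1311.9 and 1257.3 in slightly mottled, 956.4 and 4104.1 in mottled, 1637.5 and 7147.1 in heavily mottled, and 862.7 and 1045.9 in pseudoagouti mice. The same 2 mice, mottled 1 and heavily mottled 1, were the highest in both tissues and did not overlap the other 8. In brain, below the filter value, they had 115.7 and 133.2, against 13.2 to 69.2 in the others. These were again the 2 brain arrays with the highest medians. With liver and kidney alone, which leaves the weak brain values out, Slc22a30 (adjusted p = 0.0157) and Slco1a1 (adjusted p = 0.0160) were still called, together with Slc22a27 and Slc22a29, and so were 1.83% of all probe sets. The kidney values of Slco1a1 were themselves weak, with a median of 72.25, against 63.25 in brain. With liver and brain alone Slc22a30 (adjusted p = 0.0209) was called and Slco1a1 (adjusted p = 0.320) was not, and with kidney and brain alone Slc22a30 was called (adjusted p = 0.0395) while Slco1a1 missed the filter. Without mottled 1 and heavily mottled 1, neither was called (adjusted p = 0.287 for Slc22a30 and 0.139 for Slco1a1), while Slc22a12 was, with 12.2% of all probe sets. Among the 5 mice numbered 1 the adjusted p was 0.133 for Slc22a30 and 0.161 for Slco1a1, and among those numbered 2 it was 0.492 and 0.213.

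Slc22a27 and Slc22a29, neighbours of Slc22a30, were lowest in the 2 mice in which Slc22a30 was highest. Slc22a29 had 909.6 and 360.3 in the livers of mottled 1 and heavily mottled 1, against 2087.8 to 4708.5 in the other 8. In kidney it had 2749.1 and 877.7, against 3386.4 to 5569.6. Slc22a27 had 1110.1 and 407.1 in liver, compared with 1737.2 to 4279.3, and 453.1 and 64.9 in kidney, against 624.2 to 978.5. Slightly mottled 2, at the other end, had the lowest Slc22a30 and the highest Slc22a29 of the 10 livers (1002.3 and 4708.5). Its kidney was at neither end for these genes (1311.9 and 4266.8). The opposite direction did not extend to brain, where Slc22a29 signals were low. There mottled 1 and heavily mottled 1, whose brain arrays had the highest medians, were the highest, with 69.1 and 95.3, against 7 to 39.4. Over all 3 tissues neither was called (adjusted p = 0.694 for Slc22a29 and 0.113 for Slc22a27). Their probe sets carry the suffix for sequence shared with other transcripts, so signals of Slc22a27 and Slc22a29 may not be separate. A probe set annotated to both Slc22a30 and Slc22a29, which was not used for either gene, followed Slc22a29, with 753 and 230.9 in the livers of mottled 1 and heavily mottled 1 and 1480.1 to 4328.6 in the other 8.

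**Figure D3:**
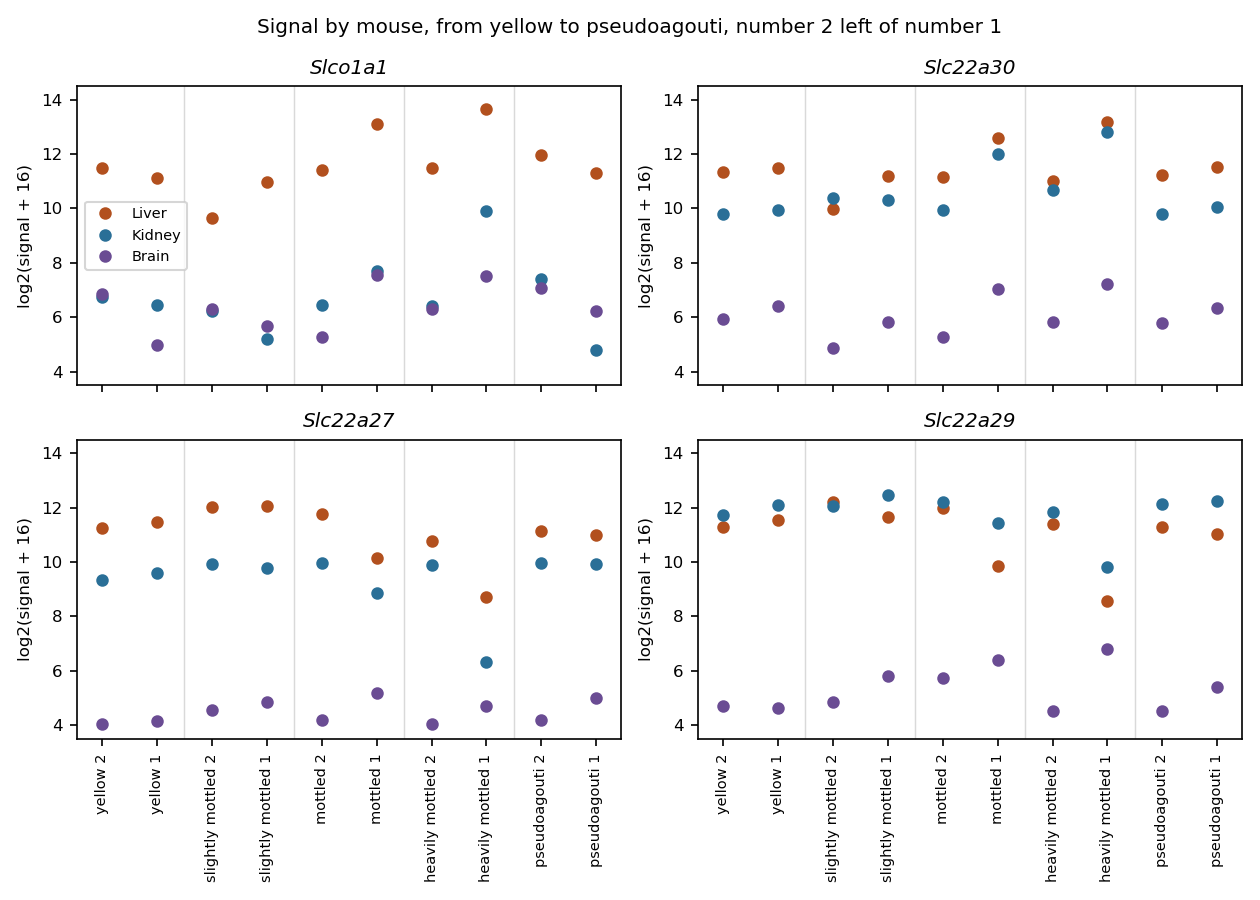
Each panel gives log2(signal + 16) of 1 gene in liver, kidney and brain of each mouse, in order of coat class with number 2 left of number 1. Mottled 1 and heavily mottled 1 are the highest mice for Slco1a1 and Slc22a30 in liver and kidney and the lowest for Slc22a27 and Slc22a29 in the same tissues.

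Slco1a1 and Slc22a30 were taken up here because they varied between mice in these data, so their relations over the 10 mice are given as a description, with no test. Log2 values of both genes in liver had Pearson r = 0.946 and Spearman rho = 0.60, and r was 0.803 without heavily mottled 1 and slightly mottled 2, the mice farthest from the median of Slco1a1. In kidney, where the mean of Slco1a1 lay below the filter value, r was 0.744 and rho 0.115. There r fell to 0.348 without heavily mottled 1 and pseudoagouti 1. For Slco1a1 in liver against kidney r was 0.768 and rho 0.842, with r = 0.742 without heavily mottled 1 and slightly mottled 2 and r = 0.554 without heavily mottled 1 alone. For Slc22a30 in liver against kidney r was 0.771 and rho 0.236, and without mottled 1 and heavily mottled 1 r was -0.494, so this value rests on those 2 mice. Within the 5 mice numbered 2 and the 5 numbered 1, r was 0.959 and 0.992 for both genes in liver, -0.676 and 0.918 for both genes in kidney, 0.696 and 0.913 for Slco1a1 between tissues, and -0.532 and 0.968 for Slc22a30 between tissues; both of the named mice carry number 1.

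The spread between mice was wider for the members than for most probe sets in liver and kidney. Over members with a mean at the filter value in the tissue, the SD over 10 mice on log2(signal + 16) had a median of 0.40 in liver (19 members), 0.41 in kidney (28 members) and 0.35 in brain (12 members). Over all probe sets at that level the median was 0.28 in each tissue. In liver 9 of 19 members lay above the 90th percentile of all probe sets, in kidney 11 of 28 and in brain 1 of 12. These counts include Slco1a1 in liver and Slc22a30 in liver and kidney, which were taken up because they varied between mice. They also include Slc22a27 and Slc22a29 in both organs, whose signals may not be separate. The counts therefore describe these members and give no independent support for a trait of the families. The widest in liver were Slco1a1 (SD 1.12), Slc22a29 (1.09), Slc22a27 (1.0) and Slc22a30 (0.87). The narrowest was Abcc6 (0.15), which had nearly the same signal in all livers. In kidney the widest were Slc22a27 (1.12), Slc22a7 (1.11), Slc22a30 (1.02) and Abcc3 (0.87), and the narrowest was Slco2a1 (0.13). In brain Slc22a8 (0.54) came first, before Slco1a4, Abcc8 (both 0.43) and Slc22a17 (0.41).

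**Figure D4:**
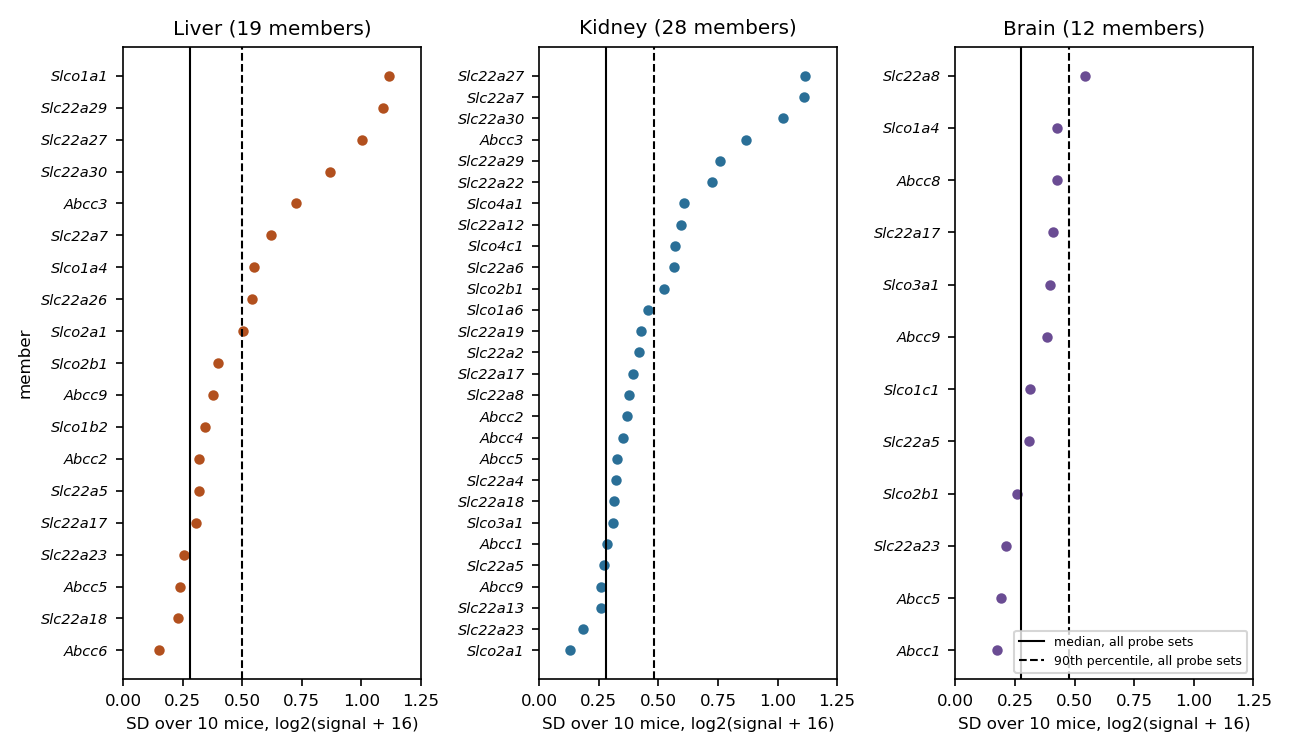
Points give the SD over 10 mice of log2(signal + 16) for each member at or above the filter value in liver, kidney or brain; the solid line is the median and the dashed line the 90th percentile over all probe sets at that level. In liver 9 of 19 and in kidney 11 of 28 members lie right of the dashed line, in brain Slc22a8 alone.

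Heavily mottled mouse 1 had the highest or lowest signal in 10 of 19 members in liver, 16 of 28 in kidney and 6 of 12 in brain. Among all probe sets at the same level it was at either end in 26.6% in liver, 33.6% in kidney and 31.2% in brain. This share was not computed for the other mice. Its brain array had the highest median of the 3 tissues' arrays (205.4). Its kidney had the highest Slc22a7 (5367.8, against 280.5 to 810.8 in the other 9), the highest Slc22a12 (17460, against 3945.7 to 7676.4) and the lowest Abcc3 (150.3, against 677.6 to 1347.4). In its liver Abcc3 was instead the highest (3102.2, against 558 to 1689.8), as was Slco2a1 (3107, against 1055 to 2440.7), while Slco1a4 was the lowest (1574, against 2644.2 to 5816.6). Abcc3 in this mouse thus lay at opposite ends of the 2 organs.

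Other genes stood apart in the same mouse. The summed signal of the 7 male-predominant liver genes on the array, of 12 listed, in its liver was 69100.3, against 18210.5 to 45454.4 in the other 9, with Elovl3 at 4251.2 (136.5 to 434.8 in the others), Hsd3b5 at 14352.1 (808.4 to 4977.9) and Cyp7b1 at 3338.7 (426.2 to 692.3). Cyp2d9 and Cyp4a12a were also the highest, while Mup3 (18642, against 5741.4 to 25761.9) and Cyp2u1 (540.9, against 348.3 to 792.8) lay within the range of the others. Of these 7, Cyp2d9 and Cyp7b1 were called between mice. The summed signal of 6 of 7 listed fetal and neonatal liver genes was the lowest of all livers (1755.3, against 2283.6 to 7367.9), and most of the range of this sum came from Afp, with 341.4 (470.1 to 5415 in the others). Gpc3 and Cyp3a16 were also the lowest, and Cd24a, Igf2 and Dlk1 lay within the range of the others. In its kidney the summed signal of the 7 proximal tubule markers was the highest (128095.8, against 59171.3 to 105731.1), led by Miox, Slc34a1 and Slc7a13; the last had 16920.9, against 1935.1 to 6183.1. The hepatocyte marker sum in its liver, 266573.7, lay within the range of the other 9 (197397.6 to 294053.9). The part of these genes in the results on members was not tested.

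No member passed the test along the coat classes. On the scale from yellow (0) to pseudoagouti (4), limma called 0 of 35 members on the mean of the tissues, where 0.00444% of all probe sets were called, 0 in liver (0% of all), 0 in kidney (0.00444%) and 0 in brain (0%). At an unadjusted p under 0.05 there were 2 members on the mean (Slc22a22 and Abcc6; 5.71%, against 1.90% of all probe sets), 1 in liver (Slc22a22; 2.86%, against 2.38%), 1 in kidney (Slco1a4; 2.86%, against 2.06%) and 2 in brain (Abcc6 and Slc22a4; 5.71%, against 1.45%). The slope of Slco1a1 in liver was 0.29 ± 0.20 log2 units per step and that of Slc22a30 0.14 ± 0.16 (SE, 10 mice). The 2 mice with the highest values of both genes, mottled 1 and heavily mottled 1, had class mates with values near the other mice.

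The labels name no property that mice of the same number share. Between mice numbered 2 and 1, limma called 2 members in brain (5.71%, against 1.97% of all probe sets). It called 1 in kidney (2.86%, against 7.33%) and 0 in liver (0%, against 9.85%). At an unadjusted p under 0.05 there were 5 in brain (14.3%, against 22.0% of all probe sets), 8 in kidney (22.9%, against 28.8%) and 6 in liver (17.1%, against 25.7%). With coat class as a covariate the calls were 0 in brain (0% of all probe sets), 6 in kidney (17.1%, with 4 higher and 2 lower in number 2, against 9.93% of all probe sets) and 1 in liver (lower; 2.86%, against 8.6%). In brain Slc22a8 (Oat3) had 160.2, 164.7, 203.7, 259.3 and 266.6 in mice numbered 2, against 346.2, 365, 372.8, 429.5 and 507.4 in mice numbered 1. The groups did not overlap, and the difference of number 2 minus number 1 was -0.90 ± 0.18 (SE, adjusted p = 0.0351). Slco1a4 in brain had 625.7, 770, 823.3, 826.7 and 970.5 in number 2, against 1083, 1211.2, 1217.8, 1501 and 1584.5 in number 1, also without overlap (-0.70 ± 0.14, adjusted p = 0.0352). Of all probe sets, 1.22% had higher and 0.75% had lower signals in brains numbered 2. In liver and kidney the same genes had differences of 0.15 and -0.17 (Slc22a8) and 0.40 and 0.97 (Slco1a4), none called, and the difference between tissues itself was called for Slco1a4 (adjusted p = 0.0413; 4.94% of all probe sets passed this test) and not for Slc22a8 (adjusted p = 0.0849).

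Both proteins are known at the blood-brain barrier, and Slc22a8 also in the choroid plexus. The summed signal of 6 brain endothelial markers was 6473.2 to 7825.7 in number 2 and 6236.6 to 8497.7 in number 1, that of 8 choroid plexus markers 4567.7 to 20935.8 and 1285.5 to 33433.6 (685.6 to 2672.6 and 912.8 to 1776.9 without Ttr, which made up most of the sum in the highest brains), and that of 7 meningeal fibroblast markers 3038.5 to 7522 and 4310 to 7888.9, so all 3 sums overlapped between numbers. Within these lists Flt1 (192.2 to 242.6 in number 2, against 288.6 to 401 in number 1) and Slc2a1 (2197.6 to 2933.1, against 1629.8 to 2153.8) did not overlap. Both are endothelial markers, and they went in opposite directions. The share of all probe sets without overlap was not computed, but 22.0% had an unadjusted p under 0.05 between the numbers in brain. The part of the markers in the differences was not tested. The 2 calls in brain held without mottled 1 or without heavily mottled 1, and both were lost (0 members called) without any of the other 8 mice, when at most 113 of all 22519 probe sets were called in place of 444.

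In kidney Abcc2 (Mrp2) had 1070.8, 1160.5, 1181.1, 1413.8 and 1683.9 in number 2, against 1479, 1688.6, 1848.6, 2135.5 and 2270.2 in number 1, with overlap. The difference was -0.53 ± 0.15 (SE, adjusted p = 0.0499), at the edge of the threshold, while 3.86% of all probe sets were higher and 3.46% lower in kidneys numbered 2. In liver Abcc2 had 2361, 2409.8, 2701.7, 3366.4 and 3885.1 in number 2, against 1957.2, 2039.6, 2095.2, 2232 and 2262.8 in number 1. There the groups did not overlap and the difference was 0.45 ± 0.14 (adjusted p = 0.0571). In liver 4.72% of all probe sets were higher and 5.13% lower in number 2. In liver the hepatocyte marker sums overlapped between the numbers. The kidney call was lost without yellow 1, slightly mottled 1, heavily mottled 1, pseudoagouti 1, yellow 2, slightly mottled 2 or pseudoagouti 2 (0 members called). Without mottled 1, 2 members were higher in number 2 and none lower, with 19.1% of all probe sets called. The summed proximal tubule markers were 59171.3 to 73398 in kidneys numbered 2 and 75428.9 to 128095.8 in those numbered 1, without overlap, and their part in the kidney difference was not tested.

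**Figure D5:**
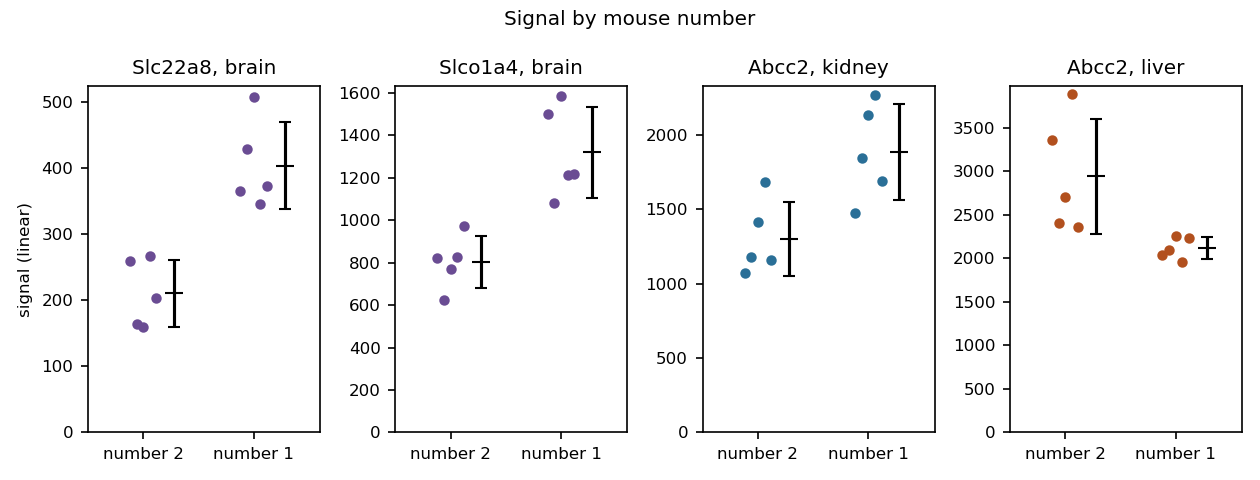
Points give the linear signal of each mouse, number 2 left of number 1, for Slc22a8 and Slco1a4 in brain and Abcc2 in kidney and liver; ticks and bars are means and SD of 5 mice. Number 2 lies below number 1 without overlap in the 2 brain panels, overlaps it in kidney and lies above it in liver.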

How the data were processed

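RNA of liver, kidney and brain of 10 mice was hybridised to 30 Affymetrix mouse whole-genome arrays. The deposited values are linear intensity signals, 1 per probe set and array, computed by the authors with MAS5 per the submitters' processing notes, with a version not given in the sources used here; the mean of each array over all its probe sets, trimmed by 2% at each end, was 500 in every array. The 64 control probe sets were then left out. Scan dates and batches are not given. Probe sets were named from GEO's platform annotation: 34945 had 1 symbol, 932 several and 9160 none, and all 46 member symbols were unchanged in RefSeq. No 2 arrays held identical values.

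Signals were tested as log2(signal + 16) in R 4.3.3 with limma 3.58.1 (lmFit and eBayes with trend) over the 22519 of 45037 probe sets whose highest tissue mean reached the median of that value, 242. Tissue differences were fitted with mouse as a block, differences between mice by an F-test with tissue as a covariate, coat as a slope over steps 0 to 4, and number 2 against number 1 within each tissue. P-values were adjusted by Benjamini-Hochberg over all probe sets tested, at 0.05, with a log2 difference of at least 1 for tissues only. The labels give each array a class and a number but no mouse ID. Arrays that share both were taken to come from 1 mouse and were paired, which is a reading of the labels. Deviations of a mouse so defined correlated in 2 tissues at -0.027 to 0.334 (liver and kidney), -0.085 to 0.236 (liver and brain) and -0.054 to 0.405 (kidney and brain). Relations over mice were computed in Python 3.11.15 with scipy 1.17.1 and are given without a test. The fits were also run on simulated data with added shifts and independent normal noise. That setting is simpler than these data and checks the code only.

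Any member may be named; full values are given for the 5 members per tissue that exceeded both others by most, for Slco1a1, Slc22a30 and the called members, and for the 4 widest members per tissue. The members and lists were chosen with earlier results of these data known. Alternatives were another offset (1 or 64), filter, normalisation or probe set, other blocks, and leaving out mice; the number of arrays limits the precision.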

Additional observations from a re-analysis of the deposited data

Results flagged for a closer look

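Among 59 groups of 10 samples, 1 for each member in each tissue where it reached the filter value, 10 had a highest or lowest mouse set apart, with a gap to the next mouse above 0.466 of the range of the group. Chance alone sets apart about 1 in 20 groups. By tissue these were 0 of 19 groups in liver, 7 of 28 in kidney and 3 of 12 in brain. Among all probe sets at the same level a mouse was set apart in 6.08% in liver, 5.32% in kidney and 5.48% in brain, and it was heavily mottled 1 in 15.2%, 31.7% and 42.7% of those. In 7 of the 10 member groups that mouse was heavily mottled 1. In kidney it was the lowest for Slc22a27 (gap of 0.701 of the range), Abcc3 (0.679) and Slc22a29 (0.616) and the highest for Slc22a7 (0.646) and Slc22a12 (0.553). In brain it was the lowest for Slco1c1 (0.686), the thyroxine carrier of the blood-brain barrier, with 1055.5 against 1832.3 to 2355.1 in the other 9 brains, and the highest for Abcc9 (0.511), with 494.8 against 171.3 to 290.

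The other 3 came from other mice. In kidney slightly mottled 2 was the lowest for Slc22a19 (0.467), and mottled 2 was the lowest for Slc22a17 (0.529). In brain pseudoagouti 1 was the lowest for Slco2b1 (0.586).

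The difference between mice numbered 2 and 1 was itself different between the tissues for Slco1a4 (adjusted p = 0.0413 of limma's interaction test), with 0.40 in liver, 0.97 in kidney and -0.70 in brain on the log2 scale. The kidney signals of this gene lay below the filter value in all 10 mice.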

How the results depend on the processing

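For the 27 named differences between a member's highest tissue and the next, 558 values under alternatives had 558 times the same direction and 550 times passed the call. The exceptions were Abcc5 with probe sets without a suffix (0.34), Slco2b1 without mottled 1 and heavily mottled 1 (0.95), and Abcc8 in 6 settings, namely without these 2 mice (0.84), without mottled 1, heavily mottled 1 or pseudoagouti 1, with an offset of 64 and after quantile normalisation (0.74 to 0.97). Without any 1 mouse, 26 to 27 members differed between liver and kidney (28.2% to 28.9% of all probe sets). Between liver and brain 24 to 26 did (50.5% to 51.1%), and between kidney and brain 27 to 28 (42.4% to 42.9%). Without the replicate block, and with mouse as a random block, these counts were 26, 26 and 28 (28.5%, 50.6% and 42.6% of all probe sets). With the mouse number as a replicate block, over all tissues or within each, the F-test still called 2 members. Its adjusted p was 0.0240 and 0.0296 for Slc22a30 and 0.0203 and 0.0177 for Slco1a1. The share of all probe sets called fell from 6.8% to 0.182% with the block over all tissues and 0.417% with it within each. In each coat fit with the number as a block, 0 members passed (0% to 0.00444% of all probe sets). The block changed no other call of a member.

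The F-test (2 members, 6.80% of all probe sets) called 0 members in mice numbered 2 only (0.0444% of all) and 0 in mice numbered 1 only (0%), which leaves fewer mice. It called 4 in liver and kidney only (1.83% of all), 1 in liver and brain only (0.00444%; adjusted p of 0.320 for Slco1a1) and 3 in kidney and brain only (3.10%; Slc22a30, Slc22a12 and Slc22a2). It called 1 without mottled 1 and heavily mottled 1, left out together after the data were seen (12.2%), 3 with an offset of 64 (7.70%; also Slc22a27), 3 with probe sets without a suffix (6.80%; also Abcc9), and 2 to 3 without any 1 mouse (2.95% to 9.17%). The adjusted p without any 1 mouse was 0.000675 to 0.00552 for Slc22a30 and 0.00313 to 0.0169 for Slco1a1. No coat fit called a member without any 1 mouse (0 to 0).

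Calls by mouse number were the least stable of these counts. In kidney (1 member, 7.33% of all probe sets) they were 0 with an offset of 1 (7.04% of all), 0 without the filter (0.382%), 0 after quantile normalisation (3.83%), 2 with probe sets without a suffix (7.33%), 6 with coat class as a covariate (4 higher, 2 lower in number 2; 9.93%), 2 without mottled 1 and heavily mottled 1 (14.7%), and 0 to 3 without any 1 mouse (0% to 19.1%). In liver (0 members, 9.85% of all) they were 1 with coat class as a covariate (8.6%) and 0 to 1 without any 1 mouse (5.19% to 9.79%); the 1 call came without slightly mottled 2 or without pseudoagouti 2. In brain (2 members, 1.97% of all) they were 0 with coat class as a covariate (0%), 3 without mottled 1 and heavily mottled 1 (22.5%) and 0 to 2 without any 1 mouse (0.00444% to 9.09%). The cause was not tested.

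Relations over mice, without any 1 mouse, had r of 0.554 to 0.889 for Slco1a1 in liver and kidney, 0.521 to 0.911 for Slc22a30 in liver and kidney, 0.905 to 0.967 for both genes in liver and 0.358 to 0.832 for both in kidney. The lowest value of each came without heavily mottled 1, and without mottled 1 r was 0.707 for Slc22a30 in liver and kidney and 0.740 for both genes in kidney.

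Signals of members below the filter value in a tissue, such as Slco1a1 and Slc22a30 in brain and Slco1a1 in kidney, give little precision. The deposited values hold no detection calls.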
